A study of Mus musculus with 8 samples.

Results

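The genes described here are 9 erythroid genes, taken by name from the 24341 genes of an expression table of mouse pancreas buds: the embryonic globins *Hba-x*, *Hbb-y* and *Hbb-bh1*, the adult globins *Hba-a1*, *Hba-a2* and *Hbb-bt*, the heme synthesis gene *Alas2*, and the transcription factors *Klf1* and *Gata1*. All 9 had a row, and 8 of them passed the filter for testing, a mean of at least 0.5 FPKM, a fragment count scaled by transcript length and by the size of the library. The exception was *Hba-a2*. The study asked how loss of the Hippo kinases LATS1 and LATS2 changes the transcriptome of pancreatic progenitors. Total RNA came from single epithelial buds at embryonic day 11 (about 40 somites), after the surrounding mesenchyme had been pulled away with forceps. There were 5 WT buds and 3 *Lats1/2*PanKO buds (the *Pdx1Cre* early transgene on homozygous floxed *Lats1* f/f and *Lats2* f/f alleles), and the labels give CD1 as the strain of both groups. Cre is driven by *Pdx1* sequences, so it acts in pancreatic progenitor cells, and blood cells in the tissue are not its target. The methods compare mutants with WT or heterozygous littermates, and the labels call all 5 control buds WT. *Lats1* was lower in all 3 *Lats1/2*PanKO libraries (10.1 to 13.8 FPKM) than in the 5 WT libraries (14.1 to 16.6 FPKM), whereas the ranges of *Lats2* overlapped.

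Hemoglobin is built from alpha-type and beta-type globin chains, each carrying heme. The first red cells of the embryo, the primitive erythroid cells, arise in the yolk sac and enter the circulation while still nucleated, so that their RNA is present wherever there is embryonic blood. They make the embryonic chains, zeta-like *Hba-x* with the beta-type *Hbb-y* (epsilon y) and *Hbb-bh1* (beta h1), and also express adult globins as they mature. Definitive red cells of the fetal liver make chiefly the adult chains. ALAS2 is the erythroid form of the first enzyme of heme synthesis, GATA1 is a zinc finger factor needed for red cell development, and KLF1 binds CACCC elements of globin and other erythroid genes.

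The globins lie in a pair of clusters, in GRCm38 coordinates as the table gives them, counted from 1. *Hba-x* (chr11:32276600-32278115) and *Hba-a1* (chr11:32283672-32284493) are both on the plus strand, 5556 bases apart. The beta-type genes are on the minus strand of chromosome 7, where *Hbb-y* (chr7:103851754-103853207) is followed in the direction of transcription by *Hbb-bh1* (chr7:103841638-103843162) and, last, by *Hbb-bt* (chr7:103812524-103813923), with 37830 bases between the first and the last. Each of these genes has 3 exons. *Alas2* (chrX:150547385-150570622) and *Gata1* (chrX:7959260-7967910) are on the X chromosome, and *Klf1* is at chr8:84901928-84905295. The RefSeq promoters of 8 members were available, that of *Hbb-bh1* being the exception. The 125 bases that end just before the RefSeq start (GRCm38.p6) are shown for an embryonic and an adult gene of each cluster, because the comparison of embryonic with adult expression turns on these genes. Capitals mark CACCC (the type of sequence KLF1 binds, read as GGGTG on the other strand), CCAAT (read as ATTGG there) and GATAA (the core of GATA sites, read as TTATC there).
Hba-x: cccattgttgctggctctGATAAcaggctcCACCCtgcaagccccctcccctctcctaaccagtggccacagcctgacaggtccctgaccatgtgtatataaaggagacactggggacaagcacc
Hba-a1: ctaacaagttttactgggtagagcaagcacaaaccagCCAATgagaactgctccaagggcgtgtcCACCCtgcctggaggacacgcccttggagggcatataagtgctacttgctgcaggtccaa
Hbb-y: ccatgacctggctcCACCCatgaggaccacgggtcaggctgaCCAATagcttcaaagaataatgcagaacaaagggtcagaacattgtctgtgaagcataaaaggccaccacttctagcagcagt
Hbb-bt: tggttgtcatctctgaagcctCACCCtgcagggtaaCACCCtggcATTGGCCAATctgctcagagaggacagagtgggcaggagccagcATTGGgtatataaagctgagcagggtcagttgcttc

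These stretches are chr11:32276475-32276599 (plus strand), chr11:32283547-32283671 (plus), chr7:103853208-103853332 (minus) and chr7:103813924-103814048 (minus), in that order, and all lie upstream of the start that RefSeq and the table give, although GENCODE M21 has a start further upstream for each of these genes. Both strands were searched, and no copies of different motifs overlapped. CACCC was found in the 125 bases of all 8 members with an entry, against 32.7% of 32851 mouse promoters. The copy nearest to the start began 95 bases before it in *Hba-x*, 60 in *Hba-a1*, 111 in *Hbb-y* and 89 in *Hbb-bt*. CCAAT was found in this window in *Hba-a1*, *Hba-a2*, *Hbb-y*, *Hbb-bt* and *Klf1* (21.9% of all promoters), but not in *Hba-x*. GATAA was found there in *Hba-x*, *Alas2* and *Klf1* (10.96% of all promoters). *Hba-x* is thus the 1 globin of the 4 printed that has GATAA beside CACCC in this window and no CCAAT. The 250 bases upstream of *Hba-a1* and those upstream of *Hba-a2* share a stretch of 247, so these members are not separate cases in the motif counts. A match in these letters is not evidence of binding.

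Copies of adult globins limit what single rows can say. The coding sequences of *Hba-a1* and *Hba-a2* are identical at 428 of 429 bases, and the table places both rows at the *Hba-a1* locus, although GENCODE places *Hba-a2* at chr11:32296489-32297298. Of the 75-base windows of the *Hba-a1* transcript, 62.2% also occur in *Hba-a2*. The labels do not give the *Hbb* haplotype of the buds. *Hbb-bt* and *Hbb-bs*, the paired adult beta genes of the GRCm38 haplotype, are identical at 443 of 444 coding bases and share 56.6% of such windows. The embryonic genes stand apart from these, with no shared window between *Hbb-y* and *Hbb-bh1* (76.4% identical) or between either of them and *Hbb-bt*. Adult levels are therefore best read as sums over near-identical rows.

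Embryonic globin RNA was abundant in every bud, and the *Lats1/2*PanKO buds lay within the WT range for all 3 embryonic genes. *Hbb-y* was the most abundant member. Its WT values were 1416, 2938, 3049, 8129 and 6569 FPKM in replicates 1 to 5, and its *Lats1/2*PanKO values were 5060.4, 4139 and 4289 FPKM in replicates 1 to 3. All 3 *Lats1/2*PanKO values fell between the third and the fourth of the WT values in order of size, so the groups overlapped. The means were 4420.2 ± 2805 FPKM (SD, n = 5) and 4496 ± 494 FPKM (SD, n = 3), and *Hbb-y* ranked 4th to 41st among all genes of a library by FPKM.

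*Hba-x*, the only embryonic alpha-type member, followed the same course. In WT replicates 1 to 5 it was at 750.5, 1587, 1709.6, 4758 and 3305 FPKM, and in *Lats1/2*PanKO replicates 1 to 3 at 3346, 2521 and 3088 FPKM. WT replicate 1 was again the lowest library and WT replicate 4 the highest. *Hbb-bh1* had 390.0, 699, 852, 2319.8 and 1815 FPKM in the WT libraries and 1372, 1072 and 1126 FPKM in the *Lats1/2*PanKO libraries, once more inside the WT range. Its mean was 1215 ± 815 FPKM in WT and 1190.2 ± 159.7 FPKM in *Lats1/2*PanKO. The proportion between the paired embryonic beta genes was steady. *Hbb-bh1* stood at 0.238 to 0.285 of *Hbb-y* in all 8 libraries, lowest in WT replicate 2, while *Hbb-y* itself varied 5.74-fold.

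Adult globins were present at much lower levels. *Hba-a1*, an adult alpha gene, was at 49.8, 83.4, 132, 415 and 275 FPKM in WT replicates 1 to 5 and at 284, 154 and 322 FPKM in *Lats1/2*PanKO replicates 1 to 3. Its mean was 191 ± 152 FPKM in WT (n = 5) and 254 ± 88.0 FPKM in *Lats1/2*PanKO (n = 3), and no *Lats1/2*PanKO library lay outside the WT range. *Hba-a2* was listed at 0.0280 to 0.0592 FPKM in WT and at 0.0585 to 0.0645 FPKM in *Lats1/2*PanKO, a level at which the table assigns almost no reads to this row. Since both rows carry the same locus, the sum of *Hba-a1* and *Hba-a2* is used below as the adult alpha level. This sum is nearly the *Hba-a1* row alone. Whether reads from the GENCODE locus of *Hba-a2* were counted is not known, so adult alpha may be understated.

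*Hbb-bt*, an adult beta gene, was at 22.2, 23.7, 57.5, 59.2 and 98.3 FPKM in WT and at 68.6, 57.2 and 66.5 FPKM in *Lats1/2*PanKO. Here WT replicate 5, not WT replicate 4, was the highest library, and the groups overlapped. Its near copy *Hbb-bs* was at 10.7, 1.27, 4.03, 52.3 and 89.8 FPKM in WT and at 40.7, 101 and 61.4 FPKM in *Lats1/2*PanKO. The table gives *Hbb-b1*, the adult beta major gene of another *Hbb* haplotype, the same locus as *Hbb-bs*, and the share of *Hbb-bs* in the pair ran from 2.80% in WT replicate 2 to 99.99% in WT replicate 5. The pair together came to 10.7 to 103 FPKM in WT and 76.4 to 137 FPKM in *Lats1/2*PanKO, with overlap. The remaining globin rows were near 0, with *Hbb-bh2*, which lies between the embryonic and the adult beta genes, at 0 to 0.996 FPKM and the theta-type genes *Hbq1a* and *Hbq1b* at 0 to 0.222 and 0.169 to 2.75 FPKM.

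The erythroid enzyme and the transcription factors were lower still. *Alas2* was at 11.7, 22.5, 20.05, 54.8 and 43.4 FPKM in WT and at 41.4, 32.9 and 38.9 FPKM in *Lats1/2*PanKO. *Klf1* was at 2.44, 6.0, 6.01, 15.5 and 10.4 FPKM in WT and at 10.2, 6.75 and 9.32 FPKM in *Lats1/2*PanKO. *Gata1* was at 1.32, 2.09, 1.66, 6.24 and 3.88 FPKM in WT and at 3.82, 2.18 and 4.12 FPKM in *Lats1/2*PanKO. For all of them the lowest and the highest library were WT replicates 1 and 4, as for the embryonic globins. *Alas2* kept a near constant proportion to the sum of globins, 0.00345 to 0.00442. *Gata1* stood at 0.276 to 0.540 of *Klf1*, and *Klf1* at 0.205 to 0.300 of *Alas2*, with the genotypes overlapping in each proportion.

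**Figure D1:**
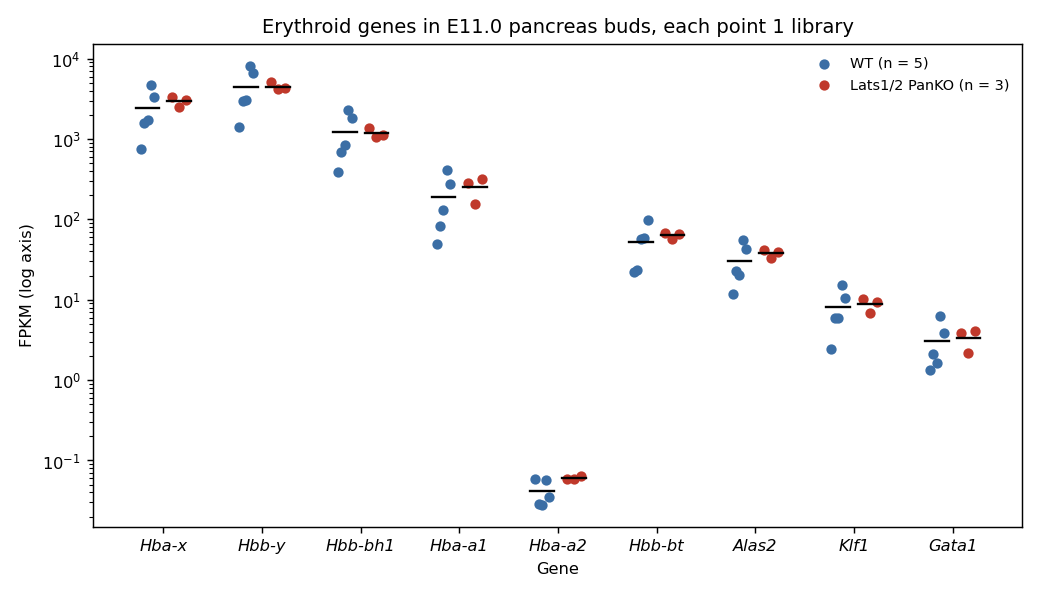
FPKM (log axis) of the 9 erythroid genes, with each point 1 library, WT in blue (n = 5), *Lats1/2*PanKO in red (n = 3), and black lines at the group means. The red points lie within the spread of the blue points for every gene but *Hba-a2*, whose values are all under 0.1 FPKM and whose groups still overlap; the embryonic globins sit at the top and *Gata1* at 1.32 to 6.24 FPKM.

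The order of levels per length was the same in all 8 libraries: *Hbb-y*, *Hba-x*, *Hbb-bh1*, *Hba-a1*, *Hbb-bt*, *Alas2*, *Klf1*, *Gata1*. Over all libraries the ranges of every pair of neighbours in this order overlapped, so the order held within a library, not across libraries. Within a library *Hbb-y* stood at 1.39 to 1.99 times *Hba-x*, and *Hbb-bt* at 1.05 to 2.87 times *Alas2*. From *Hbb-bh1*, the least abundant embryonic globin, to *Hba-a1* the ratio was 3.50 to 8.37. From *Hba-a1* to *Hbb-bt* it was 2.24 to 7.01, and in WT replicate 4 this was the wider of these steps. Together the 9 rows made up 0.470% to 2.64% of all FPKM in the WT libraries and 1.27% to 1.86% in the *Lats1/2*PanKO libraries. Values of these bulk samples cannot tell fewer red cells from less RNA per cell.

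None of the 8 members tested was called between genotypes at an adjusted p of 0.05 (limma on log2(FPKM + 1), Benjamini-Hochberg adjustment over 13777 genes), where 2 of all genes tested, or 0.0145%, were called. These were *Clu* and *Rassf9*, named after their values were seen. At an unadjusted p under 0.05 the count was 0 of 8 members, against 11.3% of all genes, 6.29% being higher in *Lats1/2*PanKO. The groups did not overlap for 0 of 8 members, against 7.51% of all genes, 4.46% being higher in *Lats1/2*PanKO. All 8 log2 means were higher in *Lats1/2*PanKO, against 46.9% of all genes, with a median log2 fold change of 0.39 against -0.01 over all genes. Without WT replicate 1, the lowest library, 5 of the 8 were higher and 3 lower, and the median was 0.13.

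The individual log2 fold changes (*Lats1/2*PanKO minus WT, limma) were all smaller than the width of their intervals. For *Hba-x* it was 0.57 with an SE of 0.52, an adjusted p of 0.743 and a 95% interval of -0.60 to 1.73. *Hbb-y* had 0.28 (SE 0.51, adjusted p of 0.887, interval -0.87 to 1.44). With the spread among WT buds, a change of this size in the embryonic globins was not detectable. *Hbb-bh1* had 0.25 (SE 0.52, adjusted p of 0.902), which became -0.088 without WT replicate 1. *Hbb-y* became -0.062 and *Klf1* -0.023 in the same way.

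The adult globins gave no call either. *Hba-a1* had a log2 fold change of 0.74 (SE 0.63, adjusted p of 0.720, interval -0.69 to 2.16), and *Hbb-bt* had 0.51 (SE 0.44, adjusted p of 0.731, interval -0.50 to 1.51). For *Alas2* the value was 0.49 (SE 0.42, adjusted p of 0.723), for *Klf1* 0.28 (SE 0.43, adjusted p of 0.860) and for *Gata1* 0.22 (SE 0.37, adjusted p of 0.873). Without WT replicate 1 the estimates were 0.36 for *Hba-a1*, 0.26 for *Hbb-bt*, 0.21 for *Alas2* and for *Hba-x*, and 0.054 for *Gata1*. Without WT replicate 4, the highest library for most members, they were 1.116 for *Hba-a1*, 0.75 for *Alas2* and 0.46 for *Gata1*. Exact two-sided permutation tests over all 56 ways of assigning the genotypes, which cannot go below 0.0179, gave p-values from 0.339 (*Hbb-bt*) to 0.750 (*Hbb-bh1*) for these 8 genes and 0.0714 for the scarcely detected *Hba-a2*.

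**Figure D2:**
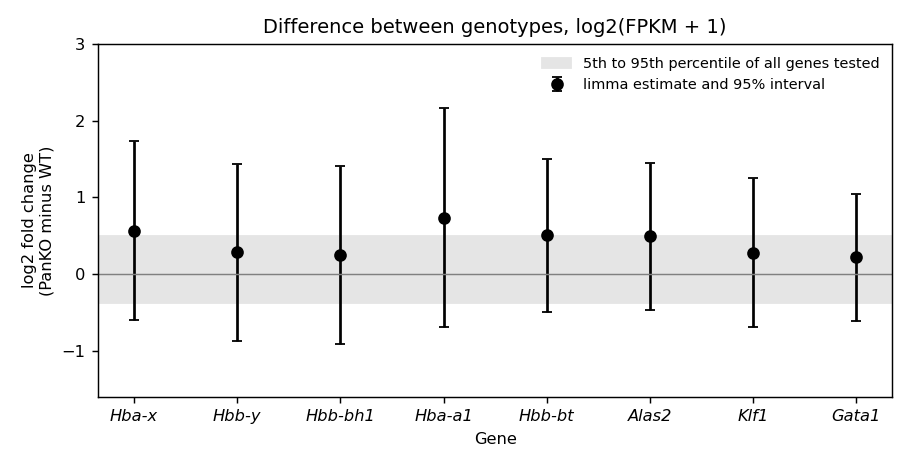
Log2 fold change (*Lats1/2*PanKO minus WT, on log2(FPKM + 1)) of the 8 members tested, with points at the limma estimate, bars at its 95% interval and a grey band from the 5th to the 95th percentile of the 13777 genes tested (-0.38 to 0.50). All 8 intervals include 0, and each is wider than the band.

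What set these genes apart was their spread among buds of 1 genotype. The within-group SD on the log2 scale was 1.06 for *Hba-a1*, 0.85 for *Hba-x*, 0.83 for *Hbb-y*, 0.86 for *Hbb-bh1*, 0.74 for *Hbb-bt* and 0.60 for *Gata1*, against a median of 0.18 over all genes tested. Only 1.41% (*Hba-a1*) to 3.33% (*Gata1*) of the genes tested had a larger one. The ratio of the highest to the lowest WT library was 6.34 for *Hba-x* and 8.34 for *Hba-a1*. Among the 3 *Lats1/2*PanKO libraries the same ratios were 1.33 and 2.09, over fewer buds.

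The members also moved together from bud to bud. On the log2 scale, over 8 libraries, the Pearson correlation with *Hbb-y* was 0.980 for *Hba-x* (Spearman's rho 0.976), 0.995 for *Hbb-bh1* (rho 1), 0.976 for *Alas2* (rho 0.976) and 0.979 for *Klf1* (rho 1). The adult genes followed less closely, with 0.932 for *Hba-a1* (rho 0.905) and 0.801 for *Hbb-bt* (rho 0.833), and *Gata1* had 0.897 (rho 0.905). In exact permutation tests over pairings, adjusted over 13 relations, the largest p among these 7 was that of *Hbb-bt*, 0.0325 for Pearson's r and 0.0286 for rho. Without WT replicates 1 and 4, the libraries farthest from the median of *Hbb-y*, Pearson's r was 0.811 (*Gata1*) to 0.989 (*Hbb-bh1*). A relation within a genotype was not computed, as neither has 6 libraries, and the labels name no batch.

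Summed markers of other cell types gave no correlation with *Hbb-y* that passed the test. The summed FPKM of 15 endothelial markers was 188 to 308 in WT and 136 to 207 in *Lats1/2*PanKO, and its correlation with *Hbb-y* was -0.08 (rho 0.14). The correlation was -0.21 for 15 macrophage and leukocyte markers (rho -0.33), 0.36 for 11 megakaryocyte and platelet markers (rho 0.52), -0.01 for 12 fetal liver markers (rho -0.26), 0.15 for 14 markers of pancreatic epithelium (rho 0.10) and 0.02 for 14 of mesenchyme (rho 0.17). Adjusted p-values of these 6 relations were at least 0.593 for Pearson's r and at least 0.319 for rho (exact permutation tests). Without WT replicates 1 and 4, Pearson's r was 0.49 for the endothelial and 0.55 for the megakaryocyte and platelet markers, and -0.12 to 0.22 for the other 4 lists. With 8 libraries, relations of this size were not detectable.

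**Figure D3:**
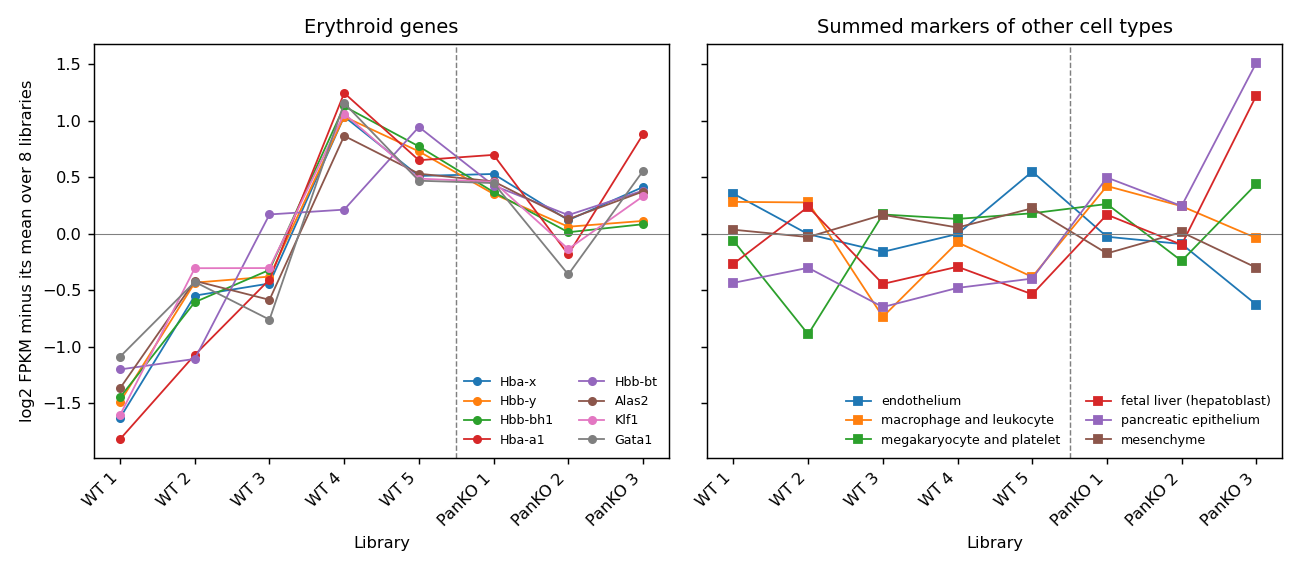
Level in each of the 8 libraries relative to its own mean (log2 FPKM minus the mean of log2 FPKM over libraries) for the 8 members above the filter, on the left, and for the summed FPKM of markers of 6 other cell types, on the right, with WT left of the dashed line. The erythroid lines rise and fall together, lowest in WT 1 and highest, for all but *Hbb-bt*, in WT 4, and no marker line has this shape.

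Among the 10 genes whose pattern was most like that of the 3 embryonic globins, by Pearson's r with their mean log2(FPKM + 1) over the 8 libraries and outside the members, were *Car2* (carbonic anhydrase, 0.975), *Rhd* (Rh antigen, 0.974), *Blvrb* (0.970), *Slc25a37* (mitoferrin, which carries iron into mitochondria, 0.969), *Slc4a1* (the band 3 anion exchanger, 0.961), *Cpox* (a heme synthesis enzyme, 0.958), *Ermap* (0.957), *Abcb10* (0.956) and *Mfsd2b* (0.954). Among the 10 most like the adult globins *Hba-a1*, *Hba-a2* and *Hbb-bt* were *Zfp808* (0.972), *Sptb* (beta spectrin, 0.970), *Trim10* (0.967), *Adra2b* (0.953), *Pklr* (red cell pyruvate kinase, 0.952), *Ermap* (0.945), *Gm12992* (0.942), *Steap3* (a ferric reductase, 0.942) and *Slc25a37* (0.934). *Ermap* and *Slc25a37* were on both lists, which share 2 of their 10 genes. Pearson's r does not reflect the size of a change. Over the 8 libraries *Gm12992* ran only from 26.6 to 29.5 FPKM and *Zfp808* from 3.83 to 5.16 FPKM. Of 13769 genes compared, 43, or 0.312%, had r above 0.9 with the embryonic globins, among them 11 of 18 genes of the red cell membrane and skeleton, 6 of 13 genes of heme synthesis and 6 of 17 other red cell genes. None of 17 erythroid transcription factors and cofactors outside the members reached this.

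Other genes of the pathway gave no call between genotypes either. In heme synthesis, 0 of 13 genes were called, 0 had an unadjusted p under 0.05, and the median log2 fold change was 0.12. Among its most abundant genes were *Tmem14c* (51.1 ± 8.54 FPKM in WT and 55.3 ± 4.08 in *Lats1/2*PanKO), a porphyrin transporter, and *Urod*, an enzyme of the pathway. In iron uptake and storage, led by the ferritin genes *Ftl1* and *Fth1* and the transferrin receptor *Tfrc*, 0 of 9 were called, with a median of 0.06. In the membrane and skeleton list, led by *Epb4.1*, *Slc4a1* and *Sptb*, 0 of 18 were called. Of these, 14 of 18 were higher in *Lats1/2*PanKO (46.9% of all genes were), with a median of 0.39, close to that of the members. *Slc4a1* was at 27.2 ± 17.7 FPKM in WT and 36.4 ± 5.63 FPKM in *Lats1/2*PanKO. At an unadjusted p under 0.05 the membrane and skeleton list had 1 gene higher (*Xk*) and 0 lower, where 6.29% of all genes were higher.

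The 17 transcription factors and cofactors, led by *Ldb1*, *Bcl11a* and *Mllt3*, of which several are also used outside blood, gave 0 calls and a median of 0.21. Of the 17, 1 had an unadjusted p under 0.05 (11.3% of all genes did) and the same 1 had groups that did not overlap (7.51% of all genes did), shares no higher than the background. This was *Myb*, a factor of blood progenitors. It was at 6.83 to 9.04 FPKM in WT and at 10.5 to 18.8 FPKM in *Lats1/2*PanKO, a log2 fold change of 0.67 (SE 0.18) with an adjusted p of 0.238 by limma. *Xk* and *Myb* are named after their values were seen. Among 17 other red cell genes, led by *Prdx2*, *Cat* and *Bnip3l*, 0 were called and the median was 0.22. Of the 4 tested globin rows outside the members (*Hbb-bs*, *Hbb-b1*, *Hbq1b* and the non-erythroid *Cygb*) none was called, and *Cygb* alone had an unadjusted p under 0.05, being lower in *Lats1/2*PanKO.

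Embryonic chains made up nearly all globin FPKM in every bud. *Hba-x* exceeded the sum of the adult alpha rows 15.1, 19.0, 12.9, 11.5 and 12.01 times in WT replicates 1 to 5 and 11.8, 16.3 and 9.59 times in *Lats1/2*PanKO replicates 1 to 3. WT replicate 2 had the highest ratio and *Lats1/2*PanKO replicate 3 the lowest, and the groups overlapped. On the log2 scale the ratio was 3.79 ± 0.30 (SD, n = 5) in WT and 3.61 ± 0.39 (SD, n = 3) in *Lats1/2*PanKO, a difference of -0.18. Leaving out 1 library at a time, this difference ran from -0.38 without *Lats1/2*PanKO replicate 2 to 0.0012 without *Lats1/2*PanKO replicate 3. Ratios over the members are given as descriptions, without a test.

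For the beta-type chains the result depended on which adult rows were counted. *Hbb-y* and *Hbb-bh1* together exceeded *Hbb-bt* and *Hbb-bs* 54.9, 146, 63.4, 93.7 and 44.6 times in WT and 58.8, 32.9 and 42.3 times in *Lats1/2*PanKO. The log2 ratio was 6.20 ± 0.68 in WT and 5.44 ± 0.42 in *Lats1/2*PanKO, a difference of -0.76, with overlap. Over *Hbb-bt* alone the difference was -0.25, and the *Lats1/2*PanKO ratios, 81.4 to 93.7, lay well inside the WT range of 67.9 to 176. With *Hbb-b1* added to the adult sum the ratios were 54.9, 52.6, 45.9, 64.4 and 44.6 in WT and 44.4, 26.8 and 29.7 in *Lats1/2*PanKO, and the groups then did not overlap, although WT replicate 5 and *Lats1/2*PanKO replicate 1 were almost equal. That sum was chosen after the values had been seen. It had the smallest WT spread of the beta ratios, an SD of 0.21 on the log2 scale against 0.68 without *Hbb-b1*.

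**Figure D4:**
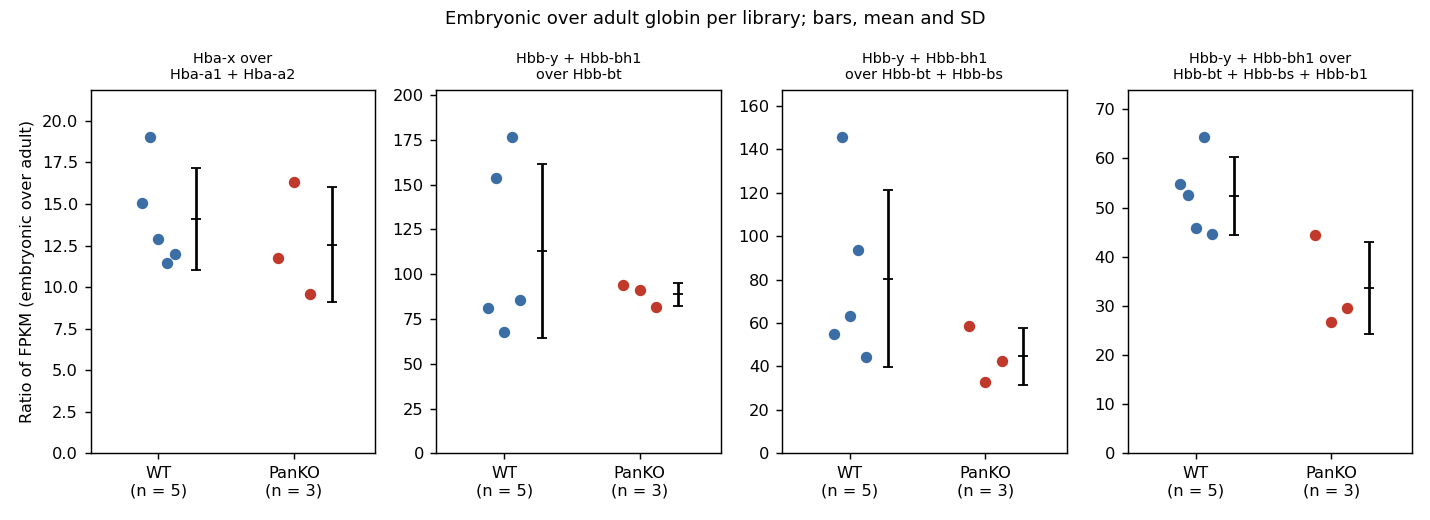
Ratio of embryonic to adult globin FPKM in each library (WT blue, n = 5; *Lats1/2*PanKO red, n = 3), with bars at the mean and SD of the group, for the alpha-type genes and for the beta-type genes with 3 choices of adult rows; every axis starts at 0. The genotypes overlap in the first 3 panels and separate, by a narrow gap between 44.4 and 44.6, in the last.

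Expressed as a share, the adult members *Hba-a1*, *Hba-a2* and *Hbb-bt* made up 2.74%, 2.01%, 3.27%, 3.03% and 3.10% of the FPKM of the 6 globin members in WT replicates 1 to 5 and 3.48%, 2.66% and 4.37% in *Lats1/2*PanKO replicates 1 to 3. *Lats1/2*PanKO replicate 2 lay among the WT libraries, the others above them. With *Hbb-bs* counted as adult, the share was 2.03% to 3.81% in WT and 3.87% to 5.03% in *Lats1/2*PanKO. With *Hbb-b1* as well it was 3.44% ± 0.426 (SD, n = 5) in WT and 4.71% ± 0.776 (SD, n = 3) in *Lats1/2*PanKO. In both of these sums all 3 *Lats1/2*PanKO libraries were above all 5 WT libraries, whereas for the alpha-type genes alone, with 4.99% to 8.03% in WT and 5.77% to 9.45% in *Lats1/2*PanKO, they were not. These shares were computed after the values had been seen.

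**Figure D5:**
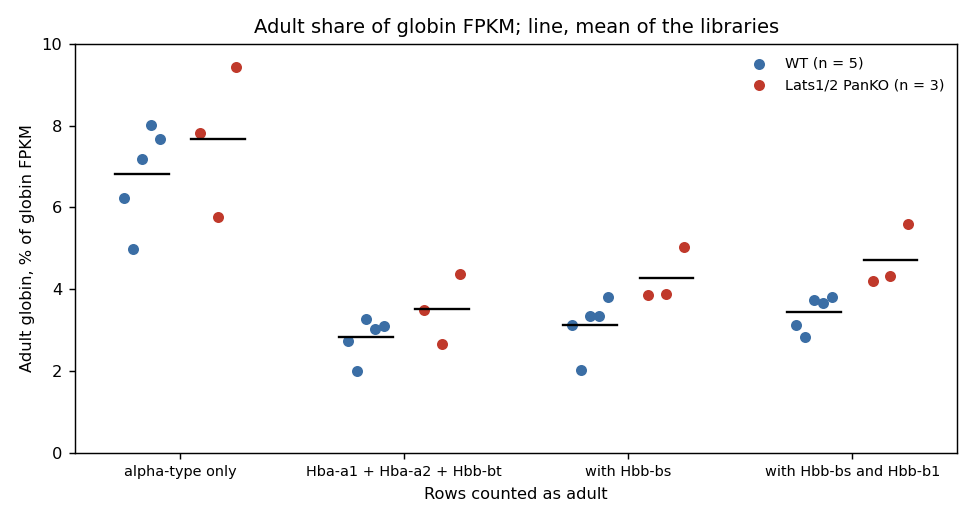
Adult globins as a percentage of globin FPKM in each library (WT blue, n = 5; *Lats1/2*PanKO red, n = 3; lines at the group means), for the alpha-type genes alone, for the members, and with the *Hbb-bs* and *Hbb-b1* rows added. The genotypes overlap in the first pair of columns and do not in the others.

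Alpha-type over beta-type globin, with members and *Hbb-bs* summed by type, was 0.435, 0.456, 0.465, 0.490 and 0.418 in WT and 0.555, 0.498 and 0.615 in *Lats1/2*PanKO. All 3 *Lats1/2*PanKO ratios were thus above all 5 WT ratios, by 0.29 in the mean of the log2 ratio, and the difference was 0.22 to 0.37 when 1 library at a time was left out. *Hba-x* and *Hbb-y* are the largest rows of these sums, so the ratio mostly compares these genes. Of the several ratios computed, only this one and the beta-type ratio with *Hbb-b1* had genotypes that did not overlap. Among the values that moved with genotype in the same libraries were the summed markers of pancreatic epithelium, 257 to 327 FPKM in WT and 477 to 1147 FPKM in *Lats1/2*PanKO. All 14 of these markers were above 1 FPKM in every library, so they were detected throughout. Endothelial markers were lower in *Lats1/2*PanKO for 15 of 15 tested, 4 of them at an unadjusted p under 0.05. Mesenchymal markers were lower for 11 of 13, 3 of them at an unadjusted p under 0.05. Over all 13777 genes tested, 7316 were lower, 687 of them at an unadjusted p under 0.05. Markers of 1 tissue can vary together, so these counts are not tests of the lists. In either list 0 genes were called, and the sums overlapped (188 to 308 against 136 to 207 FPKM for endothelium, 1049 to 1251 against 869.6 to 1081 FPKM for mesenchyme). Fetal liver is an organ that makes definitive red cells. Of its 11 tested markers, 11 were higher in *Lats1/2*PanKO (46.9% of all genes were) and 0 were called. Of the 11, 4 were higher at an unadjusted p under 0.05 (limma), as were 6.29% of all genes. For 2 of the 11 the groups did not overlap, *Lats1/2*PanKO being higher, as for 4.46% of all genes. The summed markers of fetal liver were 174 to 298 FPKM in WT and 236 to 589 FPKM in *Lats1/2*PanKO. They were highest in *Lats1/2*PanKO replicate 3, which had the highest share of adult globin, and next highest in WT replicate 2, which had the lowest share. Most of this sum came from *Ttr* and *Dlk1*. *Alb*, the albumin gene of the same list, was at 0.634 to 3.96 FPKM in WT and 0.542 to 4.11 FPKM in *Lats1/2*PanKO. The paper lists *Afp*, also in this sum, among known targets of TEAD transcription factors that were raised in the mutants. Whether the sum reflects liver tissue was not tested. Of the 12 markers none was at 0 in all libraries. The part of these other tissues in the globin ratios was not tested.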

How the data were processed

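RNA was sequenced from 8 single pancreas buds (5 WT, 3 *Lats1/2*PanKO) with a stranded kit that removes ribosomal RNA. The authors trimmed reads with cutadapt 1.12, aligned them with TopHat2 2.1.0 to mm10 and deposited FPKM per gene from Cuffdiff 2.2.1. According to the methods a quantile normalization was applied, but the deposited columns do not share 1 distribution, and they were used as deposited. Read totals were not used here, so no counting error is given. The FPKM total was 518338 to 663442 per library, with 16117 to 16982 genes above 0. The estimated FPKM of 1 fragment, relative to WT replicate 1, was 0.973 to 1.28. Of all values, 1 is marked as failed.

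Groups and replicate numbers came from the labels, which do not say whether buds shared a litter. The p-values for genotype judge a difference against the spread between these buds, which were treated as independent. The 13777 genes averaging 0.5 FPKM or more were fitted with limma 3.58.1 (R 4.3.3, mean-variance trend) on log2(FPKM + 1), which understates changes of low genes, with Benjamini-Hochberg adjusted p-values (threshold 0.05). The fit was tested on simulated data. Exact two-sided permutation tests used all 56 assignments of genotype. Named genes are the members, other globin rows, *Lats1* and *Lats2*, the 3 most abundant genes of each list and the 10 genes most correlated with embryonic and with adult globins, of which a few are not reported here. The members, lists and ratios were chosen with earlier results of these data known. Table starts count from 0 (11860 of 23027 genes match the RefSeq start less 1, 680 match it exactly) and are given from 1. Gene structure is from GENCODE M21, and promoters are from RefSeq (GRCm38.p6). Settings varied were the pseudocount (0.1), the filter (2 FPKM or none), the scaling (by quantiles, by median ratios, or without globins), array weights, the trend, a replicate block, leaving out each library, and other sums of copies. Python 3.11.15 and matplotlib 3.10.9 were used.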

Additional observations from a re-analysis of the deposited data

Results flagged for a closer look

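In 37 groups of 4 to 10 libraries, the gap between an extreme library and its nearest neighbour was compared with the range of the group by Dixon's test, which flags about 1 group in 20 by chance, and 3 stood out, all in WT. *Lats2* was at 11.6 FPKM in WT replicate 5, under the 14.0 to 14.7 FPKM of the other WT libraries and within the *Lats1/2*PanKO range. The log2 ratio of *Hbb-bh1* to *Hbb-y* was -2.07 in WT replicate 2, under the other 7 libraries. The summed fetal liver markers were 298 FPKM in WT replicate 2, above the other WT libraries.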

How the results depend on the processing

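None of the members was called under any of 17 alternatives. Over all genes, the 2 calls became 18 with a pseudocount of 0.1, 4 when FPKM were rescaled without globin rows, 174 with array weights, 1 without the mean-variance trend and 0 to 69 when 1 library at a time was left out (69 without *Lats1/2*PanKO replicate 2, 19 without *Lats1/2*PanKO replicate 3, and 0 without WT replicate 1, 2, 3 or 5). With a replicate block there was 1 call. Replicate numbers were not treated as pairs, since the deviations of same-numbered buds had correlations of 0.0855, -0.0969 and 0.0685. The block brought 7 of 8 members to an unadjusted p under 0.05, and array weights 4 of 8, with 0 called after adjustment in either. WT replicates 4 and 5 have no *Lats1/2*PanKO bud of the same number, so they do not enter the genotype difference under the block. For *Hbb-y* these were the highest WT libraries (8129 and 6569 FPKM). The median log2 fold change of the members, 0.39, was 0.98 with the block and 0.80 with array weights, and that of *Hbb-y*, 0.28, was 0.94 and 0.74. Without WT replicate 1 the log2 fold changes reversed to -0.062 for *Hbb-y*, -0.088 for *Hbb-bh1* and -0.023 for *Klf1*, from ranges over left-out libraries of -0.062 to 0.57, -0.088 to 0.55 and -0.023 to 0.54. No other member changed sign, with ranges of 0.21 to 0.88 for *Hba-x*, 0.36 to 1.116 for *Hba-a1*, 0.26 to 0.78 for *Hbb-bt*, 0.21 to 0.75 for *Alas2* and 0.054 to 0.46 for *Gata1*, lowest without WT replicate 1 in each and highest without WT replicate 4, or WT replicate 5 for *Hbb-bt*. The mean log2 ratio of embryonic to adult beta-type globin was 5.91, and 6.62 with *Hbb-bt* alone as the adult gene. Quantile normalization moved the genotype difference in *Hbb-bh1* over *Hbb-y* from -0.033 to 0.095 and that in alpha-type over beta-type globin from 0.29 to 0.42. Apart from the libraries that the block leaves out, the cause of these shifts was not tested. The lack of read counts and the split of reads between near-identical adult globin rows limit all adult values.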
